A study of Caenorhabditis elegans with 12 samples.

Results

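The 4 Y-box genes of Caenorhabditis elegans, cey-1 to cey-4, were taken by symbol from the 20389 gene rows of each count table, and all 4 passed the filter on low counts in every comparison. Y-box proteins carry a cold shock domain, a small fold that binds single-stranded nucleic acid, and they package messenger RNA and adjust its storage and translation. In the worm germline they are found in ribonucleoprotein complexes with CGH-1, a DEAD-box RNA helicase, and CAR-1, an Sm-like protein, and they are needed for large polysomes to build up. CEY-2 and CEY-3 are known as germline proteins, while CEY-1 and CEY-4 are also made in somatic tissues.

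RNA came from young adults of 4 groups of 3 libraries: dissected XO gonads, dissected XX gonads, whole XO worms and whole XX worms. All 4 groups carried the same temperature-sensitive allele, fog-1(q253), and were kept at 25 °C, the restrictive temperature, at which the series calls the germlines of both XO males and XX females feminized. No wild-type or sperm-making group is part of the comparisons. A gonad sample pooled at least 200 dissected gonads, which can hold somatic gonad cells, and a whole worm sample at least 600 animals. Whether the replicates were separate cultures is not given in the labels, so a p-value measures only the spread between these samples, which may be technical.

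Transcripts of fog-1 itself were at 606 ± 17.4 CPM in XO gonads and 43.1 ± 4.31 CPM in XX gonads, and at 312 ± 12 CPM in XO worms and 29.5 ± 1.19 CPM in XX worms (SD, n = 3 each). The allele is not a deletion, and transcript level is no check of it. The labelled tissues showed their markers: all 8 germline markers tested were higher in gonads than in whole worms in both XO and XX, while all 7 intestine and all 7 body muscle markers were lower. Of 6 sheath and somatic gonad markers, however, none rose and 5 fell in XO gonads, and 1 rose and 3 fell in XX gonads. Of 12 spermatogenesis markers, the summed level was from 7.75 to 17.7 CPM in XO gonads and from 3.84 to 5.05 CPM in XX gonads, and spe-11 and spe-38 had no counts in the XX gonads. One library, XX gonad replicate 1, stood apart from its group. Its counts differed from those of replicates 2 and 3 with a chi-square of 113 and 155 for each degree of freedom, against 17.9 between replicates 2 and 3. The smallest such value between any replicates of a group was 4.8, well above sampling noise.

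The 4 genes lie on 3 autosomes: cey-1 (sequence name F33A8.3) on chromosome II, cey-2 (F46F11.2) and cey-3 (M01E11.5) on chromosome I and cey-4 (Y39A1C.3) on chromosome III. None is on the X chromosome. In the WBcel235 annotation each has 1 transcript of 3 exons. The proteins are 208, 267, 265 and 294 residues long for CEY-1, CEY-2, CEY-3 and CEY-4. The spliced transcripts span 1381 nt for cey-1, 1011 nt for cey-2, 990 nt for cey-3 and 1183 nt for cey-4. The cey-1 transcript has the longest untranslated part, 757 nt, against 210 nt in cey-2, 195 nt in cey-3 and 301 nt in cey-4. On the opposite strand, srlf-15 overlaps 128 nt of cey-1 exons and oxi-1 overlaps 1 nt of cey-4 exons, and reads from those stretches cannot be told apart unless the counting used strand. The libraries were stranded per the labels, but the setting of the counting is not given. The level of srlf-15 averaged between 0.229 and 0.681 CPM over the groups. Any reads set aside as ambiguous are not in this level. Reads that matched several places were set aside by the counting, so the counts of the paralogs cey-2 and cey-3 are uncertain by any reads they share.

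Each gene was counted deeply. Raw counts ran from 3805 (cey-3 in XO worm replicate 1) to 39717 (cey-2 in XX gonad replicate 1), where counting error alone is 1.62% and 0.502% of the value. These are counting errors only. The coefficient of variation over 3 replicates was lowest for cey-2, at 0.951% in XO gonads and 0.872% in XO worms, and highest for cey-2 and cey-3 in XX gonads, at 18% and 18.4%.

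**Figure D1:**
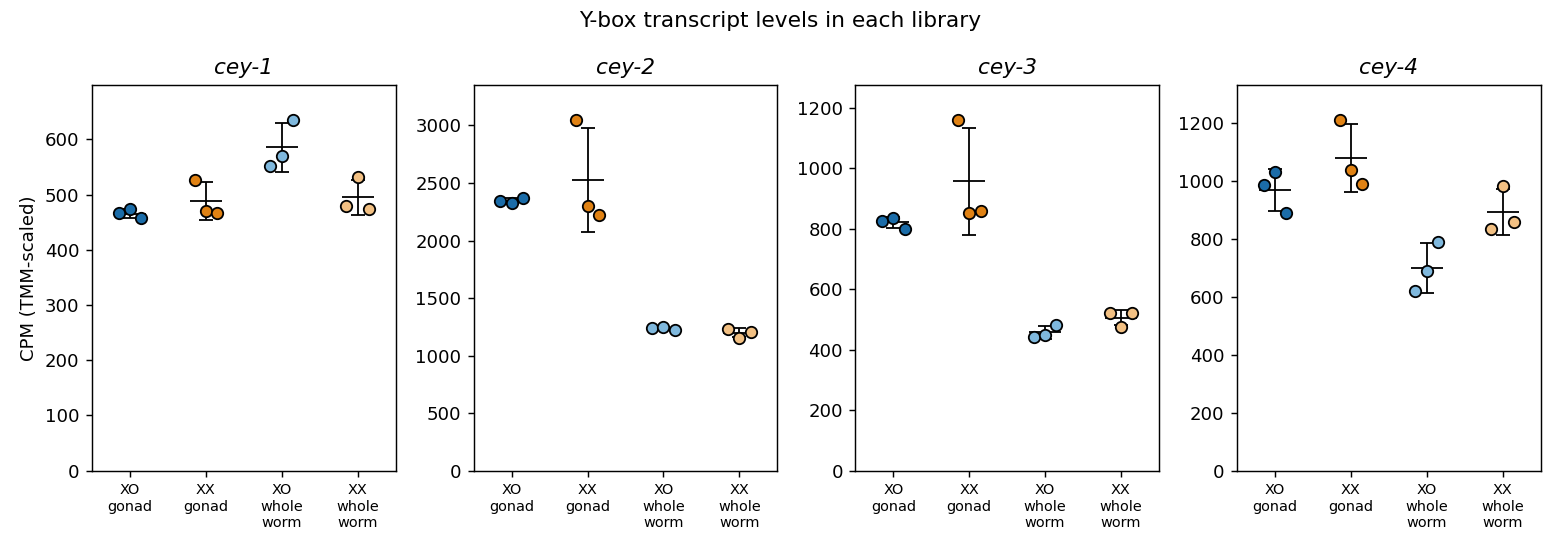
TMM-scaled CPM (y axis, from 0, a scale of its own in each panel) of each Y-box gene in the 12 libraries, by group (x axis); points are libraries, the long tick is the mean and the whiskers are the SD (n = 3). Levels of cey-2 and cey-3 lie near 2345 and 820 CPM in XO gonads and near 1236 and 457 CPM in XO worms, while cey-1 does not stand higher in gonads, and XX gonad replicate 1 is the high point of its group in every panel.

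The germline paralogs were the first question. Levels of cey-2 were 2343, 2324 and 2369 CPM in XO gonads and 3047, 2304 and 2225 CPM in XX gonads. In whole animals they were 1236, 1247 and 1225 CPM in XO worms and 1231, 1155 and 1206 CPM in XX worms. Every gonad library thus lay well above every whole worm library, and XX gonad replicate 1 lay above all others.

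The other germline paralog, cey-3, was likewise higher in gonads. It had 826, 835 and 800 CPM in XO gonads and 1159, 851 and 858 CPM in XX gonads. In whole animals it had 441, 447 and 483 CPM in XO worms and 520, 476 and 521 CPM in XX worms. Gonad libraries again lay above whole worm libraries without overlap.

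Both rose in gonads over whole worms. For cey-2 the log2 fold change was 0.92 (SE 0.11) in XO and 1.08 (SE 0.11) in XX, which is 1.9-fold and 2.11-fold, with adjusted p = 5.58e-06 and 2.28e-06 (quasi-likelihood test of edgeR, Benjamini-Hochberg). For cey-3 it was 0.84 (SE 0.11) in XO and 0.92 (SE 0.11) in XX, or 1.8-fold and 1.89-fold, with adjusted p = 1.92e-05 and 1.35e-05 by the same edgeR test. In bulk RNA, fewer cells of a type and less RNA per cell cannot be told apart.

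The broadly made genes behaved otherwise. Levels of cey-4 were 987, 1032 and 891 CPM in XO gonads and 1212, 1040 and 990 CPM in XX gonads, against 620, 689 and 792 CPM in XO worms and 837, 985 and 861 CPM in XX worms. Gonads and whole worms did not overlap within a karyotype, but in XX the nearest libraries lay at 990 and 985 CPM. The rise of cey-4 in gonads was 0.47 on the log2 scale (SE 0.11, adjusted p = 0.00223 by edgeR) in XO. It was 0.27 (SE 0.11, adjusted p = 0.0489 by edgeR) in XX, and this XX call was lost under 12 of 18 alternatives. Among them were DESeq2 (0.16), the fits without XX gonad replicate 1 (0.19) and 2 (0.18), without XX worm replicate 1 (0.23) and 3 (0.25), and without XO gonad replicate 1 or 2 or XO worm replicate 2 (0.28 in each). The XO call was lost under DESeq2 (0.33, adjusted p = 0.0741) and with scaling on autosomal genes (0.34, adjusted p = 0.108 by edgeR).

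Levels of cey-1 were 467, 473 and 457 CPM in XO gonads and 527, 471 and 466 CPM in XX gonads, against 551, 570 and 635 CPM in XO worms and 480, 532 and 474 CPM in XX worms. In XO the gonads lay below the whole worms without overlap, whereas in XX the libraries overlapped. The gene fell by 0.33 on the log2 scale in XO gonads (SE 0.08, 0.795-fold, adjusted p = 0.00317 by edgeR), a call lost when no filter on low counts was applied (-0.27, adjusted p = 0.179). In XX the log2 fold change was -0.02 (SE 0.08), which did not pass, with a 95% interval (normal, from the SE) from -0.19 to 0.15.

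Of the 4 genes, 3 rose and 1 fell in gonads over whole worms in XO, where 79.8% of 12528 tested genes passed, 29.6% higher and 50.3% lower. In XX, 3 rose and 1 did not pass, where 71.0% passed, 28.5% higher and 42.4% lower. Replicates of gonads and whole worms did not overlap for 4 Y-box genes in XO, 3 higher and 1 lower, and for 3 in XX, all higher. Among all tested genes that held for 87.4% in XO (36.0% higher and 51.3% lower) and for 72.7% in XX (28.6% higher and 44.1% lower). The median log2 fold change of all tested genes was -0.83 in XO and -0.32 in XX. Relative to that median cey-1 lay above 0, at 0.50 in XO and 0.30 in XX, so its fall holds on the TMM scale. The comparisons share no library between XO and XX, but all used 1 estimate of spread. In the ranking of all tested genes by log2 fold change, cey-2 stood at the 97.4 percentile in XO and the 98.4 percentile in XX, cey-3 at 95.3 and 96, cey-4 at 71.5 and 67.1, and cey-1 at 54.1 and 56.8.

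**Figure D2:**
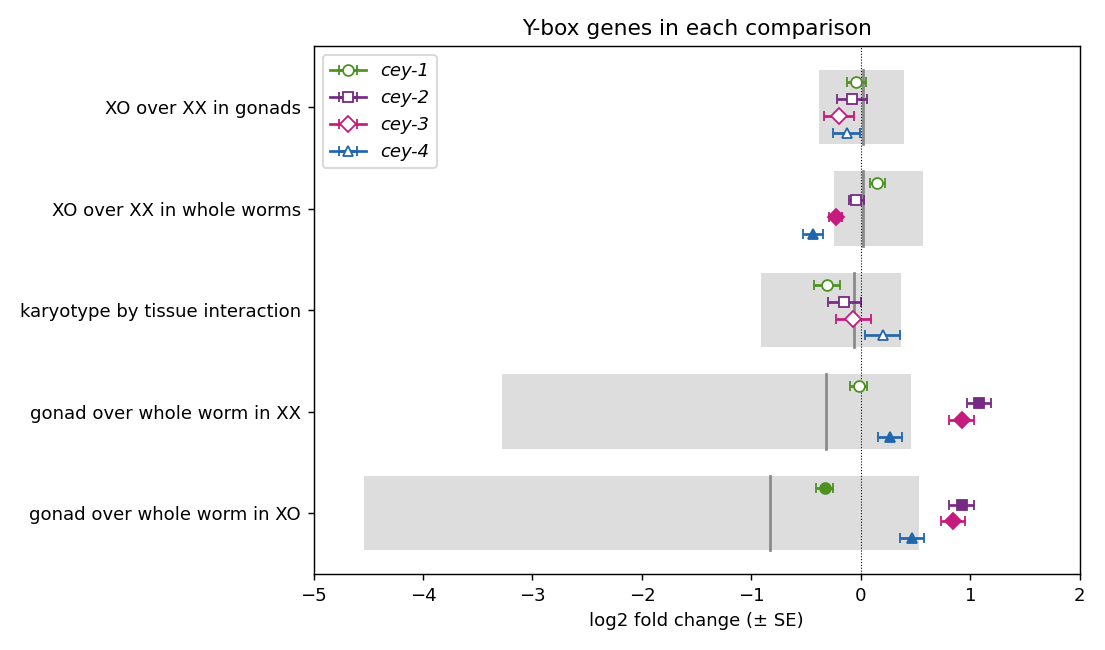
log2 fold change (x axis) of each Y-box gene in the 5 comparisons (y axis); whiskers are the SE, filled symbols passed the edgeR test at an adjusted p of 0.05, grey boxes span the interquartile range of all tested genes and the grey line is their median. In both gonad over whole worm comparisons cey-2 and cey-3 lie to the right of the grey box, cey-4 lies inside it and cey-1 at or below 0, while no gene is filled for XO over XX in gonads.

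Known partners of the Y-box proteins were set beside these values. Transcripts of cgh-1 averaged 3809 ± 38.8 CPM in XO gonads and 3942 ± 289 CPM in XX gonads, against 1864 ± 73.7 CPM in XO worms and 2004 ± 34.5 CPM in XX worms, and rose by 1.03 in XO and 0.98 in XX gonads on the log2 scale (SE 0.08 each). Those of car-1 rose by 0.95 and 0.93 (SE 0.09 each). Both sit close to cey-2 and cey-3 on this scale. In a list of 18 CGH-1 partners and germline messenger ribonucleoprotein genes, 16 rose in gonads in XO (median 0.77) and 15 in XX (median 0.68), and none fell.

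All 20 oocyte and early embryo RNA-binding protein genes rose in gonads in both karyotypes (median 0.74 in XO and 0.86 in XX). Of 12 P granule genes, which encode germline RNA granule proteins, 11 rose in XO and 10 in XX (median 0.74 and 0.58). The 8 germline markers had medians of 0.91 in XO and 0.84 in XX, and 9 of 10 oocyte markers rose in each, while 1 fell in XO. Values of cey-2 and cey-3 thus lay within or near the range of germline genes, from 0.69 to 1.19 in XO and from 0.62 to 1.02 in XX for the germline markers.

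Genes of translation and genes tied to the poly(A) tail or the cap, some of which, such as fog-3, are germline genes, were set beside cey-4. Of 24 translation initiation and elongation factors tested, 22 rose and 2 fell in XO gonads (median 0.70), and 20 rose and 2 fell in XX gonads (median 0.64). Of 74 cytosolic ribosomal protein genes, 65 rose and 2 fell in XO (median 0.72), and 56 rose and 2 fell in XX (median 0.46). Of 22 poly(A) tail and cap genes, 13 rose and 3 fell in XO (median 0.57), and 12 rose and 1 fell in XX (median 0.35). The values of cey-4, 0.47 and 0.27, lay below the medians of all 3 lists in both karyotypes. The other cold shock domain gene with a call, lin-28, which encodes a regulator of let-7 microRNA maturation, rose by 0.50 in XO and 0.67 in XX (SE 0.09 each). The exosome nuclease gene dis-3 did not pass in either, at 0.52 in XO and 0.08 in XX, with a wider SE of 0.35 each.

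**Figure D3:**
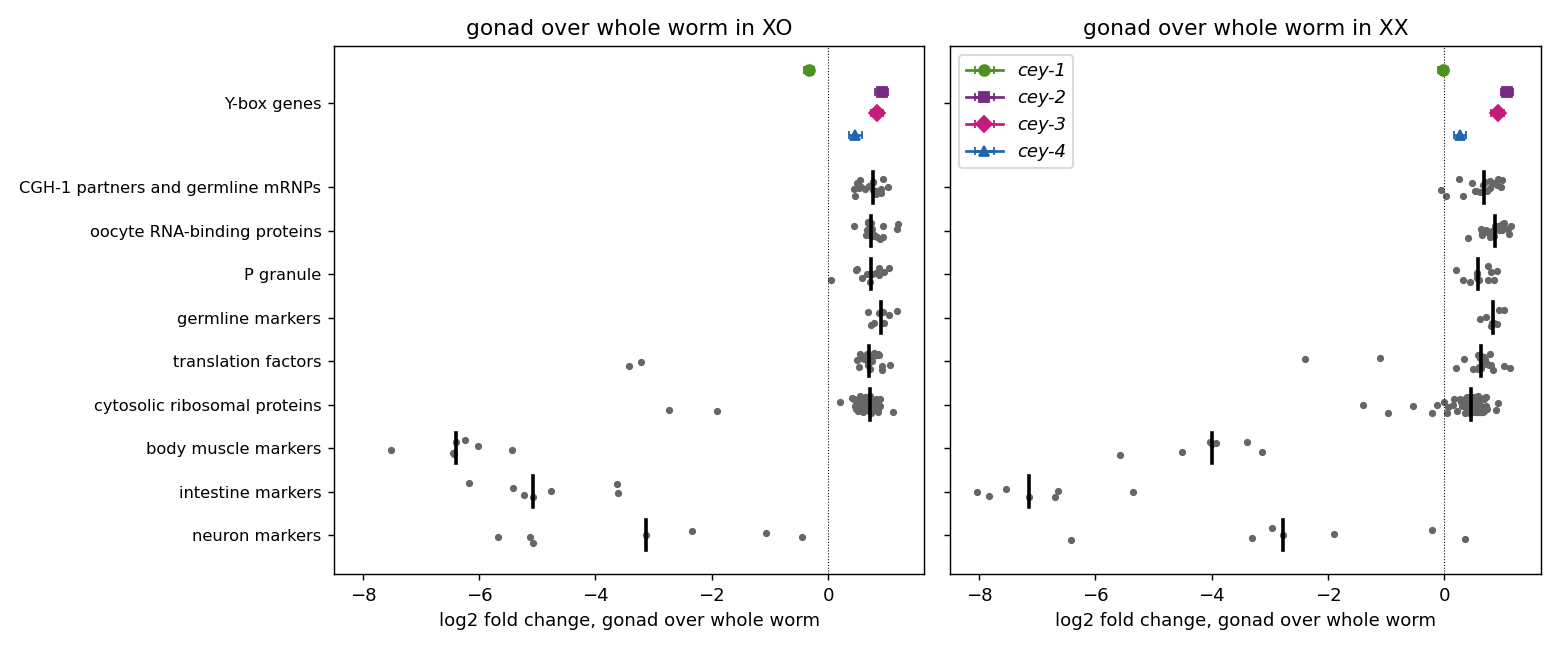
log2 fold change of gonad over whole worm (x axis) in XO (left) and XX (right) for the Y-box genes (colored, with SE) and for the tested members of 9 gene lists (grey points, black tick at the median; y positions within a row are spread only for legibility). Symbols of cey-2 and cey-3 align with the germline lists, whose medians run from 0.58 to 0.91, cey-4 lies to their left and cey-1 at -0.33 in XO and -0.02 in XX, while muscle and intestine markers lie far below 0.

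Levels of the 4 genes were then compared per length. In CPM per kb of exonic length, cey-2 averaged 2320 ± 22.1 in XO gonads, 2498 ± 449 in XX gonads, 1222 ± 10.7 in XO worms and 1184 ± 38.3 in XX worms. It was the most abundant of the 4 in every library, and ranked between 61 and 81 of 19899 genes per kb in XO gonads. In XX worms it ranked between 118 and 136.

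In XO gonads the order per kb was cey-2, then cey-3 at 829 ± 18.7 and cey-4 at 820 ± 61.2, which did not differ beyond their spread, and then cey-1 at 337 ± 6.08 CPM per kb. In XX gonads cey-3 at 966 ± 178 and cey-4 at 913 ± 98.8 CPM per kb were likewise within each other's spread, above cey-1 at 354 ± 24.6. In XO worms cey-4 was next after cey-2 at 592 ± 73.5, followed by cey-3 at 461 ± 23.1 and cey-1 at 424 ± 31.9 CPM per kb, and cey-3 exceeded cey-1 per kb in each of the 3 libraries (445 against 399, 451 against 413 and 488 against 460). In XX worms cey-4 was at 756 ± 67, cey-3 at 511 ± 25.8 and cey-1 at 359 ± 23.3 CPM per kb. These orders hold for exonic length. With coding length cey-1 stood above cey-3 in both whole worm groups, and above cey-4 in XO worms.

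The make-up of the Y-box pool, each gene's part of the summed counts per kb, does not depend on library scaling. The share of cey-2 was 53.9% ± 1.32 in XO gonads and 52.7% ± 1.07 in XX gonads, against 45.3% ± 2.26 in XO worms and 42.2% ± 1.73 in XX worms (SD, n = 3 each). The share of cey-1 was 7.83% ± 0.0319 and 7.54% ± 0.617 in XO and XX gonads, against 15.7% ± 0.49 and 12.8% ± 0.702 in XO and XX worms. That of cey-4 was 19% ± 1.14 and 19.4% ± 0.957 in gonads, and 21.9% ± 1.73 and 26.9% ± 2.12 in worms, in the same order. That of cey-3 moved least, from 17.1% ± 0.223 in XO worms to 20.4% ± 0.608 in XX gonads. With coding length in place of exonic length the share of cey-1 was 12.9% in XO gonads and 12.4% in XX gonads, since most of its transcript is untranslated. In XO worms its share by coding length was 24.3%, above cey-4 at 20.6% and cey-3 at 14.9%. In XX worms it was 20.1%, above cey-3 at 16.2% and below cey-4 at 25.7%.

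**Figure D4:**
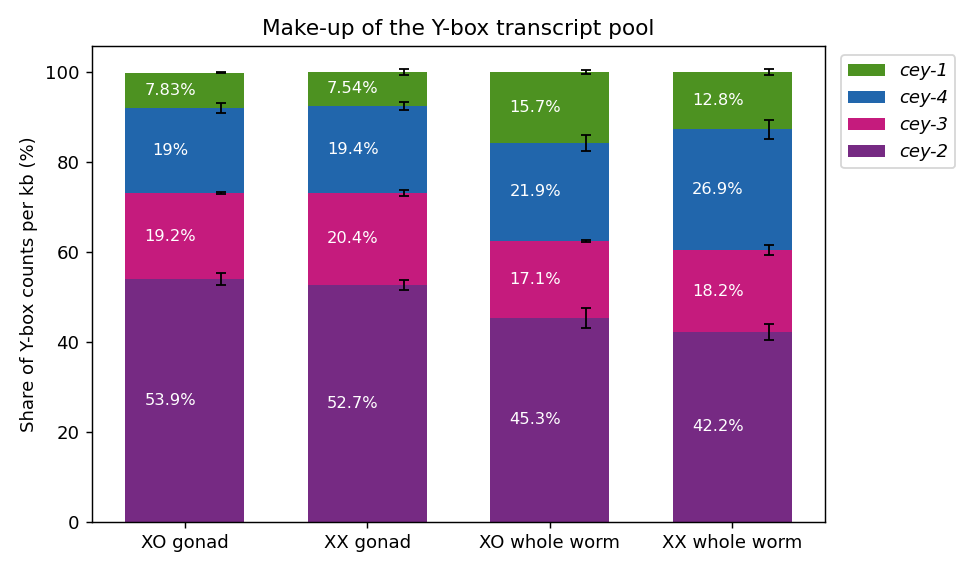
Share of each Y-box gene (y axis, percent) in the summed counts per kb of exonic length, by group (x axis); bars are means over 3 libraries and whiskers the SD of the gene below them. The cey-2 part is 53.9% and 52.7% in XO and XX gonads and 45.3% and 42.2% in XO and XX worms, and the cey-1 part widens in whole worms to 15.7% and 12.8%.

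Summed over the 4 genes, the Y-box part of all gene counts was 0.467% ± 0.0117 in XO gonads and 0.499% ± 0.0768 in XX gonads, against 0.313% ± 0.0041 in XO worms and 0.293% ± 0.00727 in XX worms. On the TMM scale the sum was 4601 ± 77 CPM in XO gonads and 5050 ± 778 CPM in XX gonads, against 2978 ± 146 CPM in XO worms and 3093 ± 48.3 CPM in XX worms.

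XO and XX gonads were compared next, to see whether feminized germlines with 1 or a pair of X chromosomes differ in Y-box transcripts. None of the 4 genes passed, where 27.8% of 8558 tested genes did (8.07% higher and 19.7% lower in XO). Replicates did not overlap for 1, cey-3, which was lower in XO, as held for 51.6% of tested genes (21.7% higher and 29.9% lower). At an unadjusted p of 0.05 none passed either, by edgeR, and none passed by DESeq2. On the log2 scale, XO over XX was -0.04 (SE 0.09) for cey-1, -0.08 (SE 0.14) for cey-2, -0.20 (SE 0.14) for cey-3 and -0.13 (SE 0.12) for cey-4. Their 95% intervals (normal, from the SE) ran from -0.22 to 0.13, from -0.36 to 0.19, from -0.47 to 0.08 and from -0.36 to 0.10.

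XX gonad replicate 1 carried much of that spread. It lay above the mean of the other XX gonads by 0.17 on the log2 scale for cey-1, 0.43 for cey-2, 0.44 for cey-3 and 0.26 for cey-4. Tested genes of 900 to 1500 nt had a median of 0.14 in that library, with an interquartile range from -0.22 to 0.32, so cey-2 and cey-3 lay above that range. Without it the log2 fold changes were 0.03 for cey-1, 0.09 for cey-2, -0.02 for cey-3 and -0.03 for cey-4, and none passed. The lists around the Y-box genes were mixed in gonads. Of 18 CGH-1 partners and germline messenger ribonucleoprotein genes 0 passed. Among 20 oocyte RNA-binding protein genes 1 rose and none fell, and 2 of 74 ribosomal protein genes and 2 of 24 translation factors fell. Of the 12 P granule genes 4 fell, all of them meg genes, and 3 of 8 germline markers rose and none fell. Of 22 poly(A) tail and cap genes 1 rose, fog-3 (4.01), and 4 fell, among them ife-2 (-3.46). One of 10 oocyte markers fell.

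Markers of other cells also differed between the XO and XX gonad samples. Of 5 sheath and somatic gonad markers tested 3 fell, and the list's summed level was from 21.4 to 31.2 CPM in XO gonads and from 113 to 140 CPM in XX gonads. The gap junction gene inx-8 was at 1.5 ± 0.378 CPM in XO gonads and 101 ± 12.7 CPM in XX gonads. Body muscle markers fell in 5 of 7 cases (median -1.53), with sums from 135 to 203 CPM in XO gonads and from 390 to 485 CPM in XX gonads. All 4 cuticle genes tested rose, 2 intestine markers rose and 2 fell of 4 tested, 2 neuron markers rose and 1 fell of 6, and both male somatic genes tested rose. Their part in the Y-box values was not tested.

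Whole XO and XX worms were compared in the same way, in a fit with less spread between replicates. The common biological coefficient of variation estimated by edgeR was 0.0845 in whole worms and 0.269 in gonads. A call in whole worms without a call in gonads therefore does not by itself show a larger difference. By the edgeR test, cey-4 and cey-3 fell in XO worms, while cey-2 and cey-1 did not pass, where 53.4% of 12259 tested genes passed, 29.2% higher and 24.2% lower. The log2 fold change was -0.44 (SE 0.09) for cey-4, a 0.737-fold level (adjusted p = 0.001 by edgeR), and the 3 XO worms, at 620 to 792 CPM, lay below the 3 XX worms, at 837 to 985 CPM. For cey-3 it was -0.23 (SE 0.06), a 0.851-fold level (adjusted p = 0.00678 by edgeR), and the libraries overlapped between 476 and 483 CPM. For cey-2 it was -0.04 (SE 0.07; interval from -0.18 to 0.10). For cey-1 it was 0.15 (SE 0.07, adjusted p = 0.0832 by edgeR), with XO worms at 551 to 635 CPM and XX worms at 474 to 532 CPM. Replicates thus did not overlap for cey-1, higher in XO, and cey-4, lower in XO, which held for 60.6% of all tested genes (39.0% higher and 21.6% lower).

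These small differences depended on how whole worms were scaled. Intestine markers, yolk protein genes among them, summed to between 4323 and 4870 CPM in XO worms and between 75002 and 102040 CPM in XX worms. The yolk protein genes vit-2 and vit-6 averaged 224 and 277 CPM in XO worms, and 35568 and 47259 CPM in XX worms. The 7 intestine markers did not fall as a set: 2 rose, asp-1 (0.35) and elt-7 (0.87), 2 fell, vit-2 and vit-6, and 3 did not pass. Dividing by total gene counts in place of TMM moved the median of all tested genes from 0.02 to 0.25, and 78.6% of calls were then higher in XO, against 54.8% with TMM and 66.6% in the fit on all 12 libraries. The cey-4 call held in all 13 alternatives, from -0.54 to -0.20. The cey-3 call was lost with total counts (0.001, a turned direction) and in the fit on all 12 libraries (-0.15), and cey-1 passed under both (0.39 and 0.24) and without XX worm replicate 2 (0.20). With total counts cey-2 passed too, in a turned direction (0.20, adjusted p = 0.0296 by edgeR). A change from TMM to total counts shifts all genes alike, so values relative to the median of all genes are the same by construction. They were -0.46 for cey-4, -0.25 for cey-3, -0.06 for cey-2 and 0.14 for cey-1. In the fit on all 12 libraries they were -0.46, -0.26, -0.06 and 0.13.

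Ratios of the genes within a library need no scaling. The log2 ratio of cey-1 to cey-4 counts averaged -0.25 ± 0.08 in XO worms and -0.85 ± 0.04 in XX worms, so that cey-1 was 1.51-fold higher relative to cey-4 in XO. That of cey-4 to cey-2 averaged -0.83 ± 0.19 in XO worms and -0.42 ± 0.17 in XX worms. Replicates did not overlap in either, as held for 60.6% of single tested genes in whole worms. In gonads the same ratios overlapped between karyotypes, at -1.06 ± 0.08 in XO and -1.14 ± 0.06 in XX for cey-1 to cey-4, and at -1.28 ± 0.12 in XO and -1.22 ± 0.10 in XX for cey-4 to cey-2. These ratios were chosen after their values were seen, so their differences are given as a description.

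The ratio of the germline paralogs, cey-3 to cey-2, separated the karyotypes in both tissues. Its log2 value, from read counts, averaged -1.52 ± 0.05 in XO gonads and -1.40 ± 0.03 in XX gonads, a difference of -0.11, and -1.44 ± 0.08 in XO worms and -1.24 ± 0.03 in XX worms, a difference of -0.19. XO libraries were lower without overlap in each tissue. The exact 2-sided permutation test gave p = 0.1 in gonads and in whole worms, the smallest that 3 against 3 libraries allow. Without XX gonad replicate 1 the difference in gonads was also -0.11. Among single tested genes, XO and XX replicates did not overlap for 51.6% in gonads and 60.6% in whole worms (29.9% and 21.6% lower in XO). No such share was taken for ratios, so the separation is not shown to be particular to this pair. In XX the cey-3 to cey-2 ratio also separated the tissues, with gonads lower without overlap (gonad minus whole worm -0.16). In XO the tissues overlapped (-0.08). The cey-1 to cey-3 ratio, also chosen after its values were seen, was higher in XO without overlap in both tissues, by 0.14 in gonads and 0.39 in whole worms, but by 0.05 in gonads without XX gonad replicate 1. Reads with several places in the genome were not counted for a gene. Their summary line, as a part of gene counts and summary lines together, held 6.23% to 8.8% in XO gonads and 4.99% to 8.72% in XX gonads. It held 12.8% to 14.2% in XO worms and 17.6% to 20.3% in XX worms. The part of such reads in this ratio was not tested.

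**Figure D5:**
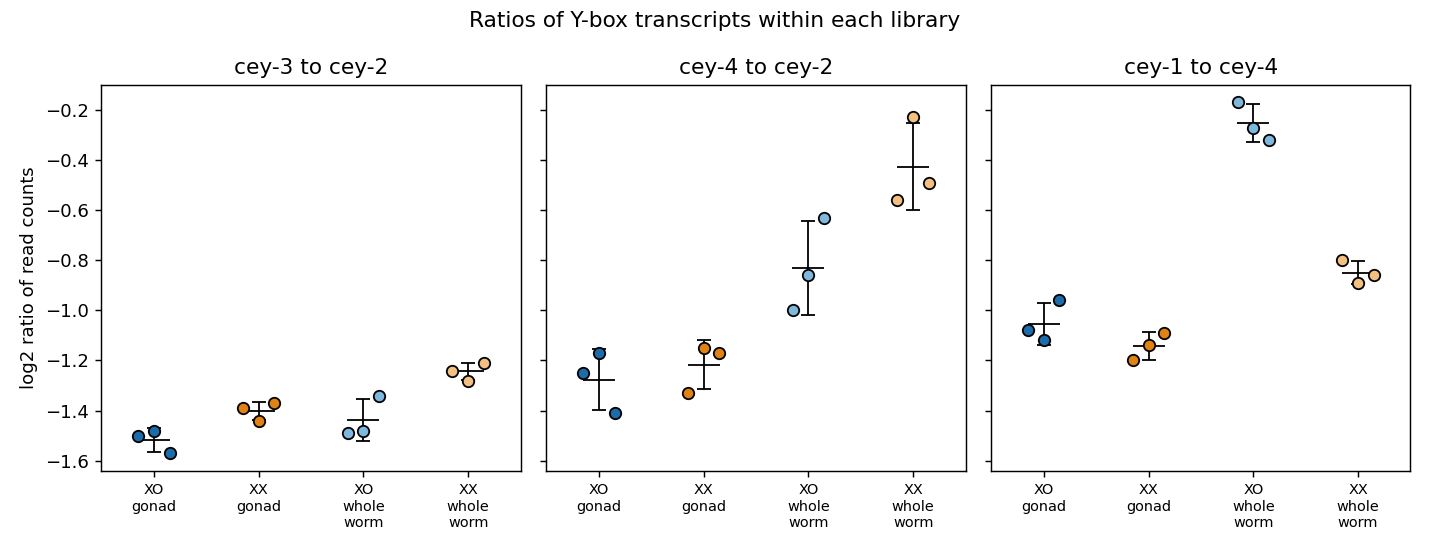
log2 ratio of read counts (y axis) of cey-3 to cey-2, cey-4 to cey-2 and cey-1 to cey-4 in each library, by group (x axis); points are libraries, the long tick is the mean and the whiskers the SD (n = 3). The cey-1 to cey-4 ratio is near -1.06 and -1.14 in XO and XX gonads and splits in whole worms, to -0.25 in XO and -0.85 in XX, while cey-3 to cey-2 is slightly lower in XO in both tissues.

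The difference between tissues in the XO over XX contrast was tested as an interaction. None of the 4 genes passed, where 17.0% of 12528 tested genes did (2.96% higher and 14.1% lower), and the log2 values were -0.31 (SE 0.12) for cey-1, -0.15 (SE 0.15) for cey-2, -0.07 (SE 0.16) for cey-3 and 0.20 (SE 0.16) for cey-4. At an unadjusted p of 0.05 cey-1 alone passed (adjusted p = 0.108 by edgeR), and it was called with total counts in place of TMM (-0.42, adjusted p = 0.0145 by edgeR). DESeq2 called none, with adjusted p = 0.274 for cey-1. The fall of cey-4 in whole worms and its absence of a call in gonads are therefore not shown to differ.

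With TMM scaling, other germline genes were called lower in XO worms too. Values of the lists, here and below, were not taken under total counts, which moved the median of all tested genes to 0.25. Of the 18 CGH-1 partners and germline messenger ribonucleoprotein genes, 9 fell and none rose (median -0.17). Among them car-1 was at -0.26 (SE 0.07, adjusted p = 0.00815 by edgeR) and cgh-1 at -0.19 (SE 0.08, adjusted p = 0.0549 by edgeR). Of the 20 oocyte RNA-binding protein genes 9 fell (median -0.17), as did 4 of 8 germline markers (median -0.20), 1 of which rose, and 9 of 10 oocyte markers (median -0.23). Of 12 P granule genes 8 fell (median -0.24). The value of cey-3 lay near these medians and that of cey-4 below them.

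Of 74 ribosomal protein genes 71 fell in XO worms, with a median of -0.47 beside -0.44 for cey-4, and 14 of 24 translation factors fell and 1 rose (median -0.19). Of 22 poly(A) tail and cap genes 8 fell and 1 rose (median -0.08). Lists of somatic markers differed in direction. Body muscle markers rose in 6 of 7 cases (median 0.63), neuron markers in 6 of 7, while 1 fell (median 1.46) and male somatic genes in all 6. Among 6 somatic gonad genes 2 rose and 3 fell, and of 7 intestine markers 2 rose and 2 fell. Of 4 cuticle genes tested 1 fell and none rose (median -0.11). The part of body composition in the Y-box values was not tested.

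Finally, the genes most like each Y-box gene over the 12 libraries were listed by the root mean square difference of centred log2 CPM. The nearest to cey-2 was Y54G9A.5 (0.05), followed by exos-4.2, hmg-12, BE0003N10.1 and mesp-1 (0.0747). For cey-3 they were ife-3 (0.0465), which encodes a cap-binding protein of the eIF4E family, icd-2, hrpk-1, T01C3.3 and C27B7.5 (0.066). Among 12527 genes, cey-3 was at place 60 for cey-2 (0.108). For cey-4 the nearest were the beta-tubulin gene tbb-2 (0.0818), glrx-5, mrps-6, the chaperonin gene cct-5 and R151.2 (0.0958), and cey-3 was at place 2239 (0.284). For cey-1 they were F58F12.1 (0.0652), T01G1.4, ech-4, ril-1 and fum-1 (0.0828), the last of which encodes the mitochondrial enzyme fumarase, and cey-4, the nearest of the other Y-box genes, was at place 1099 (0.351). The median over all genes was 1.25 for cey-2 and 0.886 for cey-1.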

How the data were processed

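Polyadenylated RNA from 12 libraries was sequenced, and the authors deposited unnormalized read counts of every gene, a file to a library. Tools in the submitters' processing notes, given without roles, are HTSeq, TopHat2 2.0.12, Cufflinks 2.2.0, CASAVA 1.8 and SAMtools 1.2, while the build, annotation and strand setting are not given in the sources used here. Of 20389 gene rows, 19899 matched 1 gene of WBcel235, the source of the symbols, chromosomes and lengths used, and 490 did not. Summary lines that name no gene held from 7.92% to 27.5% of gene counts and summary lines together, and stayed out of library sizes and tests. Libraries held from 7912618 to 16140259 gene counts.

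The deposited counts were tested with edgeR 4.0.16 (R 4.3.3): scaling by the trimmed mean of M-values (TMM), the filterByExpr filter (minimum count 10), quasi-likelihood fits with the robust option on the whole table, 2-sided tests and Benjamini-Hochberg adjustment at 0.05. XO against XX was fitted on the 6 libraries of a tissue, and the other contrasts on all 12, which share 1 estimate of spread. Scripts were tested on simulated data. Standard errors (SE) come from the F statistic. Levels are CPM, scaled by TMM over all 12 libraries. DESeq2 1.42.0, other scalings, no filter, a replicate block and leaving out each library were alternatives. In each comparison, the text could name up to 4 genes a list, those of smallest adjusted p whose mean reached 1 CPM, besides the members, cgh-1, car-1, lin-28 and fog-1, and the 5 genes most like each member. The members and lists were chosen with earlier results of these data known. The symbols ntl-1, eif-3.A and iftb-1 were not matched.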

Additional observations from a re-analysis of the deposited data

Results flagged for a closer look

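The XO over XX difference of fog-1, the mutated gene, differed between tissues by the interaction of karyotype and tissue, with a log2 value of 0.41 (SE 0.12, adjusted p = 0.0314 by edgeR's quasi-likelihood test). It was 3.84 in gonads and 3.32 in whole worms. None of the Y-box genes met this mark.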

How the results depend on the processing

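Of 320 alternative values of the Y-box log2 fold changes, 289 kept their direction and their side of the threshold. Among the rest, 16 lost a call and 4 gained one with the direction kept. The other 11 turned direction, 1 of these from a called value. A turned value could also gain a call, as cey-2 did in whole worms with total counts (0.195, adjusted p = 0.0296 by edgeR). The rises of cey-2 and cey-3 in gonads kept their calls under all 18 alternatives in each karyotype, from 0.70 to 1.18. In XX gonads over whole worms cey-4 was 0.28 with a replicate block, 0.16 by DESeq2, 0.21 with autosomal scaling, 0.37 with no filter and 0.27 without the robust option, all without a call, and from 0.18 to 0.35 with 1 library left out; cey-1 was 0.039 with total counts, 0.068 with no filter and from -0.119 to 0.039 with 1 left out. In XO, cey-4 was 0.33 by DESeq2 and 0.34 with autosomal scaling, and cey-1 -0.27 with no filter. For XO over XX in whole worms, total counts gave 0.391 for cey-1, 0.195 for cey-2 and 0.001 for cey-3, the fit on all 12 libraries gave 0.241, 0.046 and -0.147, and cey-1 ran from 0.086 to 0.202 with 1 left out. In gonads, leaving out 1 library gave from -0.103 to 0.029 for cey-1 and from -0.19 to 0.09 for cey-2, and from 1741 to 3785 genes called, the most without XX gonad replicate 1, against 2376 with all and 4046 in the fit on all 12 libraries. In the interaction, leaving out 1 library gave from -0.235 to 0.005 for cey-2 and from -0.145 to 0.088 for cey-3, and total counts gave -0.42 for cey-1. The cause of these changes was not tested. With coding length, shares in XO gonads, XX gonads, XO worms and XX worms were 12.9%, 12.4%, 24.3% and 20.1% for cey-1, 50.4%, 49.4%, 40.2% and 38% for cey-2, and 17.8%, 18.8%, 14.9% and 16.2% for cey-3. For cey-4 they were 18.9%, 19.3%, 20.6% and 25.7%, in the same order of groups.

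Replicate numbers did not pair libraries: deviations of same-numbered libraries correlated from -0.273 to 0.063 over 18 pairs, and the own number was the best match in 5 of 36 cases. With the replicate block 1622 genes were called in gonads and 6244 in whole worms, against 2376 and 6546 without it, and among the Y-box genes the XX call of cey-4 was the only one lost.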
